A study of Homo sapiens with 16 samples.

Results

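The genes described here are 50 genes of mitosis and the G2/M transition, listed by name for what their products do in cell division. The list was drawn up with earlier results of these data known. Each of the 50 symbols matched 1 of the 64252 gene identifiers in the count tables, and all 50 passed the filter on low counts in every comparison. They fall into 7 roles: 9 genes of the cyclin-CDK1 switch, 5 mitotic kinases, 8 genes of the spindle checkpoint and anaphase, 7 of the centromere and kinetochore, 11 spindle motors and microtubule proteins, 8 genes of the spindle midzone and cytokinesis, and 2 of chromosome structure.

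A cell enters mitosis when cyclin B-CDK1 becomes active, builds a bipolar spindle whose microtubules capture each kinetochore, and holds anaphase back through the spindle checkpoint until all chromosomes are attached. The anaphase promoting complex then destroys cyclin B and securin, and a midzone of antiparallel microtubules guides the ring that cuts the cell. Transcripts of these genes are made mainly in G2 and mitosis, under B-MYB, FOXM1 and the MuvB complex, and are low in resting cells, so in bulk RNA their level follows the share of dividing cells as well as the amount in each cell.

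Messenger RNA was sequenced from Jurkat and 6T-CEM cells, 2 lines that the labels describe as T-cell acute lymphoblastic leukaemia cells. Cells were transfected with a short hairpin RNA against SH2D1A (sh-SH2D1A) or a control hairpin (sh-NC), so every library comes from cells with a hairpin. SH2D1A encodes SAP, the adaptor of SLAM family receptors in T and natural killer cells. There were 8 groups of 2 libraries: Jurkat with sh-SH2D1A on day 8, Jurkat with sh-NC on day 8, Jurkat with sh-SH2D1A on day 10, Jurkat with sh-NC on day 10, 6T-CEM with sh-SH2D1A on day 5, 6T-CEM with sh-NC on day 5, 6T-CEM with sh-SH2D1A on day 10, and 6T-CEM with sh-NC on day 10. The event from which days are counted, the number of hairpins against SH2D1A, and whether the 2 libraries per group came from separate cultures were not given in the sources used here, so p-values measure the spread between these libraries, which may be technical.

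Total counts ranged between 27217899 and 33788024 per library, and levels are given as CPM, counts scaled to library size with TMM factors over all 16 libraries. The targeted gene was lower in all 4 knockdown comparisons: SH2D1A had 53.9 and 49.4 CPM in Jurkat sh-SH2D1A libraries on day 8, against 163 and 175 CPM with sh-NC, and the log2 change was -1.72 ± 0.07 there, -1.60 ± 0.10 in Jurkat on day 10, -1.71 ± 0.12 in 6T-CEM on day 5 and -1.0 ± 0.05 in 6T-CEM on day 10 (± SE, adjusted p between 1.14e-05 and 0.00191, edgeR's quasi-likelihood test). SH2D1A overlaps STAG2 on the same strand. Of 17 T cell markers 16 were above 1 CPM in every library, with a summed level of 2314 to 4745 CPM. CD2 was the exception, with 0.991 to 3.92 CPM in 6T-CEM libraries and 53.0 to 112 CPM in Jurkat libraries. Summed markers of other cells were low, at 29.1 to 97.8 CPM for B cells, 1.02 to 2.87 CPM for myeloid cells, 1.11 to 8.55 CPM for epithelial and packaging cells, and up to 4.21 CPM for erythroid cells. The 2 libraries of 6T-CEM with sh-SH2D1A on day 5 differed from each other more than other pairs did: their chi-square per degree of freedom was 24.96, against 4.84 to 10.1 in the other 7 groups. Each deposited table holds 1 line on 1 day, so a batch of handling or sequencing cannot be told apart from day or line.

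All 50 genes were well above the detection limit of 3 counts, which is 0.0888 to 0.110 CPM in these libraries and covers counting error only. The lowest level in any library was 10.5 CPM for SPC25, a subunit of the NDC80 complex, in 6T-CEM with sh-NC on day 10. The highest was 1732 CPM for MKI67, which encodes the Ki-67 protein that coats mitotic chromosomes, in Jurkat with sh-SH2D1A on day 10. Per kilobase of merged exons, and averaged over the 16 libraries, the level was highest for TOP2A, the topoisomerase that untangles sister chromatids, at 131 CPM per kb. CKS2, a small subunit of CDK complexes, followed at 92.3 CPM per kb, and the median of the 50 genes was 32.9 CPM per kb. The phosphatase gene CDC25C was lowest per length at 6.67 CPM per kb, and SPC25 was next at 8.60 CPM per kb. Together the 50 genes took 0.671 to 1.24% of all counts, depending on the library.

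Promoters of G2/M genes often carry a cell cycle genes homology region (CHR), read by the MuvB complexes with B-MYB or with the repressors of resting cells, and upstream CCAAT boxes bound by NF-Y. Both motifs were searched on both strands in RefSeq promoters of GRCh38.p14, from 250 bases before to 50 bases after each start, where 42 of the 50 genes have an entry. AURKA, BIRC5, BUB3, FOXM1, RACGAP1, TPX2, TTK and UBE2C have none in the table. The CHR was searched as TTTGAA, with TTCGAA as a second spelling, and a match on the other strand shows its reverse complement. A CHR was found for 33 of 42 genes (78.6%), against 19.5% of all 27305 genes in the table. Within 40 bases of a start it was found for 29 of 42 genes (69.0%), against 5.45% of all genes. CCAAT was found for 35 of 42 genes (83.3%), against 39.7% of all genes, and both motifs for 28 of 42 genes (66.7%), against 7.85%. A match describes letters only and is not evidence that a factor binds.

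**Figure D1:**
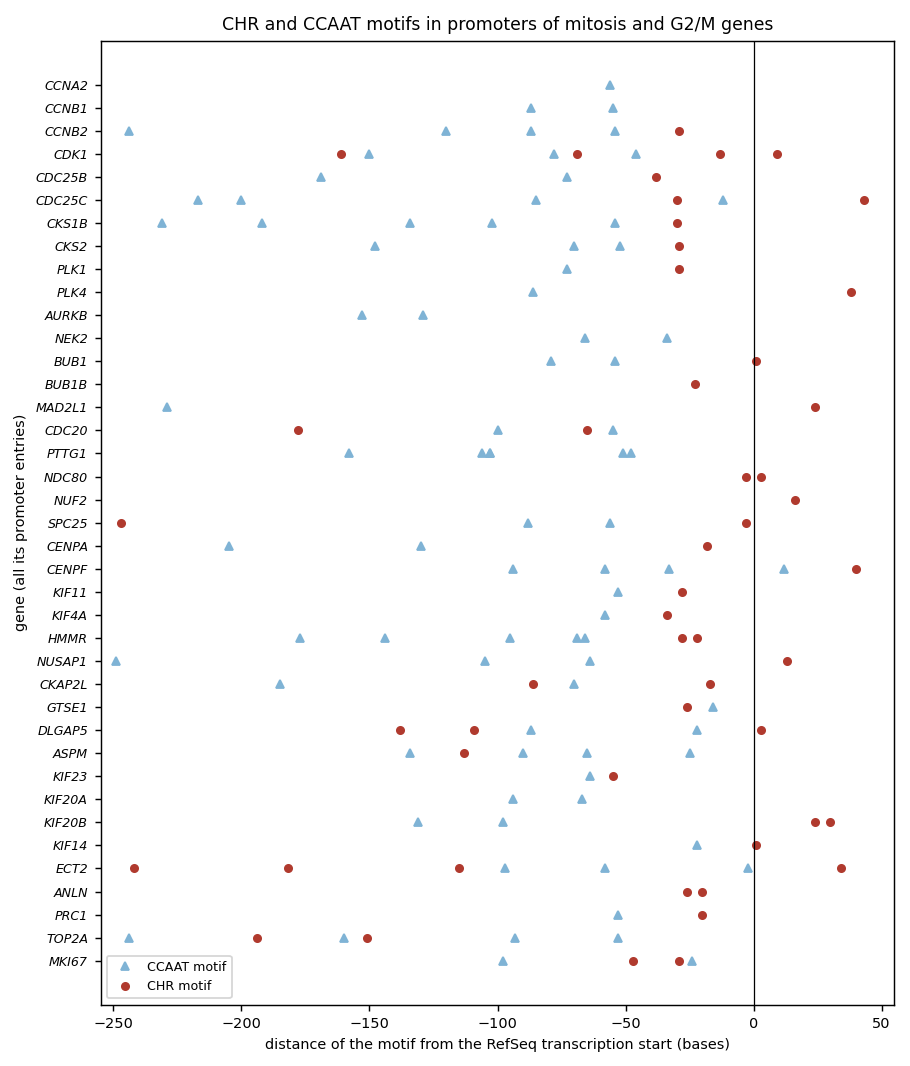
Positions of CHR (TTTGAA or TTCGAA) and CCAAT matches on either strand in RefSeq promoters of the genes that hold at least 1 match. The x axis is the distance from the annotated start, between 250 bases before and 50 bases after it, and each row is a gene. CHR matches gather near the start, within 40 bases of it in 29 of the 42 genes in the table. CCAAT matches are spread over the part of the window before the start, except that CENPF also has one 12 bases after it.

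A CHR of each of 7 members is shown with 12 bases on either side. Bases run 5′ to 3′ on the strand of the gene, with that CHR in capitals. These 7 were chosen after values had been seen, to show 1 or more genes of each main role: CDK1, the kinase of mitotic entry, PLK1, the Polo kinase, BUB1, a checkpoint kinase, CENPA, the centromeric histone, KIF11, the motor that separates spindle poles, PRC1, the midzone crosslinker, and MKI67.
CDK1, chr10:60778475-60778504, + strand: ctcgcacttggcTTCAAAgctggctcttgg
PLK1, chr16:23678848-23678877, + strand: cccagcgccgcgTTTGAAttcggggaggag
BUB1, chr2:110678045-110678074, - strand: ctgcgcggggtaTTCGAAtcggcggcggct
CENPA, chr2:26786026-26786055, + strand: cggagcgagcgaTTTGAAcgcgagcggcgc
KIF11, chr10:92593090-92593119, + strand: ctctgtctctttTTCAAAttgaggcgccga
PRC1, chr15:90994538-90994567, - strand: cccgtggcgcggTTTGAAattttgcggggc
MKI67, chr10:128126435-128126464, - strand: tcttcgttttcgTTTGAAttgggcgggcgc
Only a CHR within 40 bases of the annotated start was shown, the nearest where a promoter held several, so closeness to the start was set by this choice. CDK1 and MKI67 hold further CHR matches outside these windows. BUB1 carries the TTCGAA spelling.

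Whole promoters are shown for the 5 genes in the table that passed the test in the most knockdown comparisons or with the lowest adjusted p, with CHR and CCAAT matches on either strand in capitals.
ECT2, chr3:172750476-172750775, + strand: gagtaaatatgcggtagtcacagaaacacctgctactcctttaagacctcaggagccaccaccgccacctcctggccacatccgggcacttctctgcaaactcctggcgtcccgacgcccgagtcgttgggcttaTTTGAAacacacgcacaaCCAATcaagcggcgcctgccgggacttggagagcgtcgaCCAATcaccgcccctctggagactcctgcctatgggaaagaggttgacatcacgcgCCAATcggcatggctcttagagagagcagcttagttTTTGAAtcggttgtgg
KIF20A, chr5:138178862-138179161, + strand: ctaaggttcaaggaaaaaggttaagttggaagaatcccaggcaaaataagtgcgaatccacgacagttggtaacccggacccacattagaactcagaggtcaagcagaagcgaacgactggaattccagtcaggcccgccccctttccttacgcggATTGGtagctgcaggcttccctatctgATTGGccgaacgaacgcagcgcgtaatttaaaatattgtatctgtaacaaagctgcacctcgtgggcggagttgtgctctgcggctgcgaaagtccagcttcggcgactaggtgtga
NUF2, chr1:163321704-163322003, + strand: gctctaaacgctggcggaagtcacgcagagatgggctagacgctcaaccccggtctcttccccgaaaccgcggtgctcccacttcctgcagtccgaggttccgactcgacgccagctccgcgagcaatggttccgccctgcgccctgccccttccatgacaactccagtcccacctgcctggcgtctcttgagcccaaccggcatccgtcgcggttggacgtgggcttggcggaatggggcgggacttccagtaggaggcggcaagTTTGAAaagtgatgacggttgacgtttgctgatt
CKAP2, chr13:52455738-52456037, + strand: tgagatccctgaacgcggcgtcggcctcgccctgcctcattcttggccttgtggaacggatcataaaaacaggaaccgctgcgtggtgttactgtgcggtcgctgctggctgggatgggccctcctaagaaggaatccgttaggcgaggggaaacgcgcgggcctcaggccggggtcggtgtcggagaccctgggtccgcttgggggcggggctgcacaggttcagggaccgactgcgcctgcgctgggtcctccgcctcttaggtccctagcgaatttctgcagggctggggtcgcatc
CKS2, chr9:89310945-89311244, + strand: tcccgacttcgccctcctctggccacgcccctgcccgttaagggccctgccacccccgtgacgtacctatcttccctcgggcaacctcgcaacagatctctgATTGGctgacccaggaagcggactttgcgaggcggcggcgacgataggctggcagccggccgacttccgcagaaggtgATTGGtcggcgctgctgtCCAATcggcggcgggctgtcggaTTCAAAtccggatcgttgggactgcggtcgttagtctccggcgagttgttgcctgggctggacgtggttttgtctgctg
These 5 differ in what they hold. ECT2 carries CHR matches and CCAAT boxes in this window and has another annotated start downstream. CKS2 also holds both motifs. KIF20A holds CCAAT boxes with no CHR of these spellings, NUF2 a CHR with no CCAAT box, and CKAP2 neither.

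Changes of the 50 genes with knockdown of SH2D1A were small, mixed in sign in Jurkat and in 6T-CEM on day 10, and mostly negative in 6T-CEM on day 5. No member moved by more than 0.68 on the log2 scale in any of the 4 knockdown comparisons, and 48 of 50 moved by less than 0.5 in all 4. In Jurkat on day 8, 3 members were higher and 2 lower with sh-SH2D1A than with sh-NC at an adjusted p under 0.05 (edgeR's quasi-likelihood test over all genes), where 12.4% of the 19266 genes tested passed, 5.23% higher and 7.13% lower. On day 10 in Jurkat, 1 member was higher and none lower, where 3.78% of genes passed, 1.26% higher and 2.52% lower. At the threshold without adjustment, a p under 0.05, 8 members passed there, and the DESeq2 Wald test called 2. Shares of all genes at that threshold and by that test are not given here, so neither count is read as a result about the members. In 6T-CEM on day 5, 2 members were lower and none higher, where 2.11% of genes passed and 1.51% were lower. On day 10 there, 4 were higher and 9 lower, where 14% of genes passed, 6.61% higher and 7.42% lower. Members are among the more highly expressed genes, and of genes with a mean of at least 10 CPM the shares called were 19.5%, 5.29%, 3.25% and 22.4% in Jurkat (days 8 and 10) and 6T-CEM (days 5 and 10). In these fits of single tables, 33 of the 50 genes passed in none of the 4 comparisons, a count that was not made over all genes. The count in 6T-CEM on day 5 depended on the fit: 13 members were lower and 1 higher with all 16 libraries in the fit, where 8.06% of genes were lower and 6.05% higher, and 18 were lower without sh-SH2D1A library 2, where 6.59% were.

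The median log2 change of the 50 genes was 0.01 in Jurkat on day 8, 0.01 in Jurkat on day 10, -0.19 in 6T-CEM on day 5 and -0.04 in 6T-CEM on day 10, with the median of all genes tested within 0.01 of 0. The change was positive in 29, 28, 8 and 19 of the 50 genes in that order. Summed over the 50 genes, the level was 7337 ± 33.0 CPM in Jurkat with sh-SH2D1A on day 8 and 6959 ± 167 CPM with sh-NC (SD, n = 2 each). In Jurkat on day 10 it was 9363 ± 279 CPM with sh-SH2D1A and 9406 ± 323 CPM with sh-NC. The sum in 6T-CEM on day 5 was 10595 ± 1100 CPM with sh-SH2D1A, from 9817 and 11373 CPM in its 2 libraries, and 12389 ± 532 CPM with sh-NC. On day 10 in 6T-CEM it was 8250 ± 123 CPM with sh-SH2D1A and 8530 ± 71.6 CPM with sh-NC. In bulk RNA fewer cells in G2 and mitosis and less RNA per such cell cannot be told apart. The largest shift of the sum was in 6T-CEM on day 5, where the 2 sh-SH2D1A libraries were both below the sh-NC libraries and far apart from each other. There 25 members had both sh-SH2D1A libraries below both sh-NC libraries, against 25.3% of all genes, and 2 had both above, against 23.3%. The tests in that table were the least precise, with a median SE of 0.12 over the members, against 0.06, 0.08 and 0.04 in the tables of Jurkat (days 8 and 10) and of 6T-CEM on day 10.

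**Figure D2:**
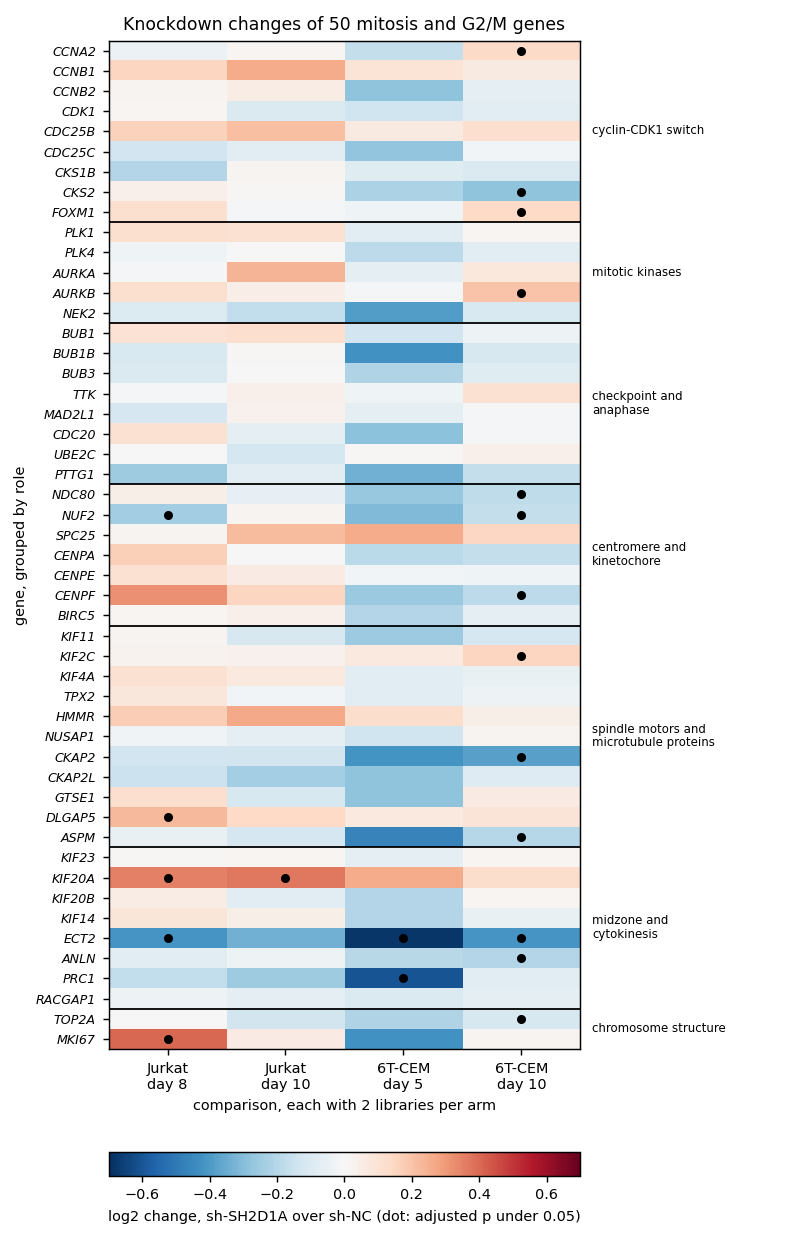
Log2 change with sh-SH2D1A relative to sh-NC of the 50 genes (rows, by role) in Jurkat on day 8, Jurkat on day 10, 6T-CEM on day 5 and 6T-CEM on day 10 (columns), with a dot where the adjusted p was under 0.05. ECT2 is lower in all 4 columns and has 3 dots, KIF20A is higher in all 4 with 2 dots, and 33 genes have no dot.

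ECT2 was the member called in the most knockdown comparisons. It encodes the guanine nucleotide exchange factor that activates RhoA at the cell equator to start furrowing, and lies at chr3:172750682-172821474 on the + strand (GENCODE 29, hg38). Its level in Jurkat on day 8 was 93.2 and 89.8 CPM with sh-SH2D1A, against 126 and 116 CPM with sh-NC. On day 10 the Jurkat values were 131 and 133 CPM with sh-SH2D1A, against 154 and 181 CPM with sh-NC. Both days show sh-SH2D1A libraries below sh-NC libraries with no overlap. ECT2 in 6T-CEM on day 5 stood at 152 and 171 CPM with sh-SH2D1A, against 250 and 271 CPM with sh-NC. The day 10 values of 6T-CEM were 91.5 and 90.1 CPM with sh-SH2D1A, against 120 and 122 CPM with sh-NC. The groups were again apart on both days. Its log2 change was -0.41 ± 0.06 in Jurkat on day 8 (adjusted p = 0.00607), -0.34 ± 0.09 in Jurkat on day 10 (adjusted p = 0.0711, not passed), -0.68 ± 0.12 in 6T-CEM on day 5 (adjusted p = 0.0245) and -0.41 ± 0.04 in 6T-CEM on day 10 (adjusted p = 0.000296, all by edgeR's quasi-likelihood test). The day 10 call in 6T-CEM held under all 11 alternatives, while the Jurkat day 8 call was lost without sh-SH2D1A library 2 and the 6T-CEM day 5 call without either sh-NC library. Over the 4 comparisons the mean log2 change of ECT2 was -0.46 ± 0.04 (adjusted p = 1.89e-06), and that call held in all 22 alternatives.

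KIF20A, the kinesin MKLP2 that carries the chromosomal passenger complex to the midzone, went the other way in Jurkat. It had 64.5 and 62.2 CPM with sh-SH2D1A on day 8, against 48.9 and 49.9 CPM with sh-NC, and 81.9 and 85.1 CPM with sh-SH2D1A on day 10, against 65.4 and 63.8 CPM with sh-NC. The log2 change was 0.35 ± 0.06 on day 8 (adjusted p = 0.0121) and 0.37 ± 0.08 on day 10 (adjusted p = 0.0348, edgeR). In 6T-CEM KIF20A had 82.7 and 85.7 CPM with sh-SH2D1A on day 5, against 73.4 and 68.1 CPM with sh-NC, and 84.6 and 74.4 CPM with sh-SH2D1A on day 10, against 71.5 and 74.5 CPM with sh-NC. The groups were apart on day 5 and overlapped on day 10, and neither difference passed the test (log2 0.26, adjusted p = 0.32, and 0.13, adjusted p = 0.25). Both Jurkat calls depended on single libraries: the day 8 call was lost without either sh-SH2D1A library, and the day 10 call without any of the 4 libraries in turn and with no filter on low counts. The mean over the 4 comparisons was 0.28 (adjusted p = 0.000106) and kept its call in all 22 alternatives. KIF20A overlaps BRD8 and CDC23 on the other strand, and the strand setting of the counts was not given in the sources used here. The same limit holds for ANLN, KIF2C, CCNA2, FOXM1, KIF23 and CDC25C, named below, which also overlap genes on the other strand. CENPA, NEK2 and TOP2A overlap a gene on the same strand.

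PRC1, which crosslinks antiparallel microtubules of the midzone, was lower in 6T-CEM on day 5. It had 119 and 125 CPM with sh-SH2D1A, against 187 and 185 CPM with sh-NC (log2 -0.60 ± 0.11, adjusted p = 0.0307, edgeR). On day 10 in 6T-CEM, PRC1 had 126 and 120 CPM with sh-SH2D1A, against 128 and 133 CPM with sh-NC (log2 -0.08 ± 0.04, adjusted p = 0.269). In Jurkat it had 139 and 148 CPM with sh-SH2D1A on day 8, against 160 and 163 CPM with sh-NC, and 189 and 191 CPM with sh-SH2D1A on day 10, against 215 and 236 CPM with sh-NC. Both Jurkat differences were negative and missed the threshold (log2 -0.17, adjusted p = 0.0737, and -0.25, adjusted p = 0.128). The day 5 call was lost without either sh-NC library, and PRC1 overlaps its antisense gene PRC1-AS1. The scaffold ANLN, which links actin, myosin and septins in the contractile ring, had 104 and 110 CPM in 6T-CEM with sh-SH2D1A on day 10, against 122 and 125 CPM with sh-NC (log2 -0.21 ± 0.04, adjusted p = 0.0132). The other 4 midzone and cytokinesis genes, KIF23, KIF20B, KIF14 and RACGAP1, passed in no knockdown comparison, and their log2 changes lay between -0.21 and 0.08.

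**Figure D3:**
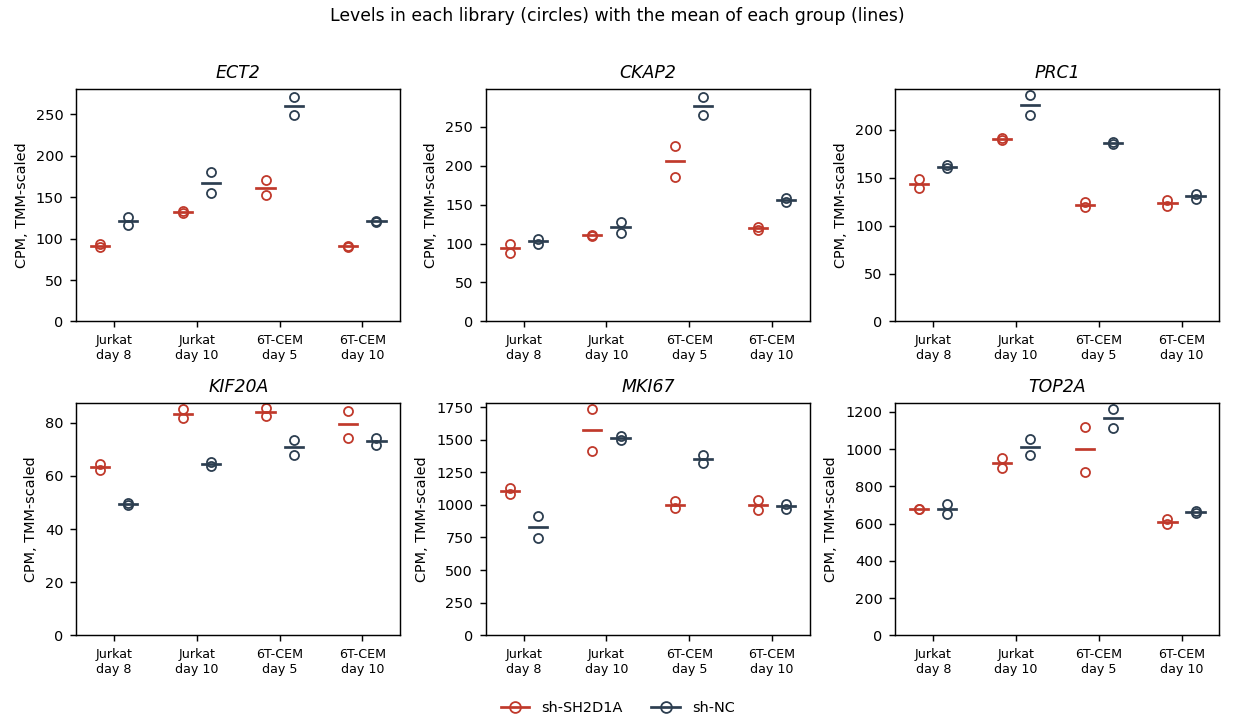
Level in CPM (y axis) of ECT2, CKAP2, PRC1, KIF20A, MKI67 and TOP2A in each library, with sh-SH2D1A points in red to the left of sh-NC points in dark grey for each line and day. ECT2 points with sh-SH2D1A sit below those with sh-NC in all 4 tables, while MKI67 with sh-SH2D1A sits above sh-NC in Jurkat on day 8 and below it in 6T-CEM on day 5.

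Among spindle motors and microtubule proteins, CKAP2, a microtubule stabiliser of the spindle, had the lowest adjusted p of a knockdown comparison. CKAP2 in 6T-CEM on day 10 stood at 118 and 122 CPM with sh-SH2D1A, against 158 and 153 CPM with sh-NC (log2 -0.38 ± 0.04, adjusted p = 0.0005, edgeR), a call that held under all 11 alternatives. On day 5 in 6T-CEM it had 186 and 225 CPM with sh-SH2D1A, against 265 and 288 CPM with sh-NC. The groups did not overlap, and the log2 change of -0.42 had an adjusted p of 0.14. In Jurkat CKAP2 had 99.7 and 88.5 CPM with sh-SH2D1A on day 8, against 99.5 and 106 CPM with sh-NC, and 111 and 109 CPM with sh-SH2D1A on day 10, against 114 and 128 CPM with sh-NC, and neither difference passed. ASPM, which focuses spindle poles, had 322 and 346 CPM in 6T-CEM with sh-SH2D1A on day 10, against 376 and 394 CPM with sh-NC (log2 -0.20 ± 0.04, adjusted p = 0.015). KIF2C, the depolymerase that corrects wrong attachments, was higher there, with 199 and 192 CPM with sh-SH2D1A and 177 and 176 CPM with sh-NC (log2 0.15 ± 0.03, adjusted p = 0.0226). DLGAP5, a spindle assembly factor also called HURP, was higher in Jurkat on day 8, with 78.3 and 77.4 CPM with sh-SH2D1A and 66.9 and 65.6 CPM with sh-NC (log2 0.22 ± 0.06, adjusted p = 0.0392). KIF11 had log2 changes of 0.02, -0.11, -0.25 and -0.11 in Jurkat (days 8 and 10) and 6T-CEM (days 5 and 10), none of which passed.

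Kinetochore genes that passed were lower with sh-SH2D1A. NUF2, a subunit of the NDC80 complex that grips microtubule ends, had 69.2 and 71.2 CPM in Jurkat with sh-SH2D1A on day 8, against 80.9 and 84.3 CPM with sh-NC (log2 -0.24 ± 0.06, adjusted p = 0.0314, edgeR). NUF2 in 6T-CEM on day 10 stood at 89.5 and 90.1 CPM with sh-SH2D1A, against 99.7 and 102 CPM with sh-NC (log2 -0.17 ± 0.04, adjusted p = 0.0277). Each of those calls was lost under 7 of 11 alternatives, and RGS5 overlaps NUF2 on the other strand. NDC80 itself had 64.6 and 62.3 CPM in 6T-CEM with sh-SH2D1A on day 10, against 71.2 and 72.6 CPM with sh-NC (log2 -0.18 ± 0.05, adjusted p = 0.0445). CENPF, a large kinetochore protein of late G2, had 505 and 548 CPM there with sh-SH2D1A, against 584 and 613 CPM with sh-NC (log2 -0.18 ± 0.04, adjusted p = 0.0253). CENPA had log2 changes of 0.17 in Jurkat on day 8, -0.0038 in Jurkat on day 10, -0.19 in 6T-CEM on day 5 and -0.17 in 6T-CEM on day 10, with adjusted p between 0.15 and 0.99. BIRC5, the passenger subunit survivin, had 0.01, 0.04, -0.21 and -0.07 in Jurkat (days 8 and 10) and 6T-CEM (days 5 and 10), and did not pass.

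In the cyclin-CDK1 switch, CKS2 was lower in 6T-CEM on day 10, with 60.7 and 57.5 CPM with sh-SH2D1A and 74.2 and 69.7 CPM with sh-NC (log2 -0.28 ± 0.06, adjusted p = 0.0126, edgeR). CKS1B, its close paralog, had 87.2 and 82.4 CPM with sh-SH2D1A there, against 89.8 and 92.6 CPM with sh-NC (log2 -0.10, adjusted p = 0.19), and how reads shared by the pair were counted was not given in the sources used here. CCNA2, cyclin A2, was higher with 225 and 223 CPM with sh-SH2D1A and 202 and 207 CPM with sh-NC (log2 0.14 ± 0.03, adjusted p = 0.0259). FOXM1, a transcription factor of G2/M genes, was higher with 202 and 210 CPM with sh-SH2D1A and 182 and 192 CPM with sh-NC (log2 0.14 ± 0.04, adjusted p = 0.0493). These 3 calls are of genes that moved in different directions by less than 0.3 on the log2 scale. CCNB1, cyclin B1, had positive log2 changes of 0.15, 0.26, 0.10 and 0.06 in Jurkat (days 8 and 10) and 6T-CEM (days 5 and 10), none of which passed, and a mean over the 4 of 0.14 (adjusted p = 0.0088). CDC25B, a phosphatase that activates CDK1, likewise had a mean of 0.14 (adjusted p = 0.004) without passing in any single comparison. CDK1 had 0.01, -0.10, -0.14 and -0.07 in the same order of tables and did not pass.

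Of the mitotic kinases, only AURKB, the catalytic subunit of the passenger complex, passed in a single comparison: it had 123 and 116 CPM in 6T-CEM with sh-SH2D1A on day 10, against 106 and 103 CPM with sh-NC (log2 0.20 ± 0.04, adjusted p = 0.0169, edgeR). PLK1 had log2 changes of 0.11, 0.11, -0.08 and 0.02 in Jurkat (days 8 and 10) and 6T-CEM (days 5 and 10), and AURKA, the kinase of spindle poles, had -0.01, 0.24, -0.07 and 0.07. None of the 8 checkpoint and anaphase genes passed in a single comparison. BUB1 had 0.10, 0.12, -0.13 and -0.04 in those tables, and CDC20, the activator of the anaphase promoting complex, had 0.10, -0.07, -0.29 and -0.01. PTTG1, which encodes securin, and BUB1B, the checkpoint protein BUBR1, passed on the mean of the 4 changes, with log2 values of -0.21 (adjusted p = 0.0135) and -0.16 (adjusted p = 0.0056).

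MKI67 was called in Jurkat on day 8 alone. It had 1079 and 1129 CPM in Jurkat with sh-SH2D1A on day 8, against 916 and 747 CPM with sh-NC (log2 0.40 ± 0.09, adjusted p = 0.0278, edgeR). On day 10 in Jurkat MKI67 had 1412 and 1732 CPM with sh-SH2D1A, against 1496 and 1527 CPM with sh-NC, and the groups overlapped. Its level in 6T-CEM on day 5 was 972 and 1028 CPM with sh-SH2D1A, against 1320 and 1381 CPM with sh-NC, with no overlap, and the log2 change of -0.42 ± 0.10 had an adjusted p of 0.0731. On day 10 in 6T-CEM the values were 963 and 1036 CPM with sh-SH2D1A, against 969 and 1009 CPM with sh-NC. The Jurkat day 8 call was lost without either sh-SH2D1A library and with no filter on low counts. TOP2A passed in 6T-CEM on day 10, with 597 and 624 CPM with sh-SH2D1A and 654 and 668 CPM with sh-NC (log2 -0.11 ± 0.03, adjusted p = 0.0476). On day 5 in 6T-CEM it had 878 and 1120 CPM with sh-SH2D1A, against 1113 and 1217 CPM with sh-NC, and the groups overlapped.

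Several of these counts depended on single libraries. The number of all genes called also changed with a library left out, so these shifts are not read as a result about the members. The 5 calls of Jurkat on day 8 became 8 without sh-NC library 1, 1 without sh-SH2D1A library 1 and 0 without sh-SH2D1A library 2. The 2 calls of 6T-CEM on day 5 became 0 without either sh-NC library, 8 without sh-SH2D1A library 1 and 18 without sh-SH2D1A library 2, the 2 libraries that stood apart. The 13 calls of 6T-CEM on day 10 became 6 without sh-NC library 1, 4 without sh-NC library 2 and 8 without sh-SH2D1A library 1, and 2 with no filter on low counts. Apart from ECT2 and CKAP2, each of those 13 calls was lost under 3 to 7 of 11 alternatives. With offsets for GC content, an alternative chosen after seeing the data, 19 members were lower and 0 higher in 6T-CEM on day 5, where 7.46% of genes were lower. There 42 of 50 members lay below genes of the same GC class (10 classes of equal size), by a median of -0.20.

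Averaged over the 4 knockdown comparisons in a fit of all 16 libraries, 10 members were lower and 4 higher. Of the 22032 genes tested 23% passed, 12.3% lower and 10.7% higher. Of genes with a mean of at least 10 CPM 35.1% passed, 20.1% lower and 15% higher. The counts of members do not exceed these last shares and are not read as a result about the members. After ECT2 the lower ones were led by PRC1 (log2 -0.28, adjusted p = 2.4e-05), CKAP2 (-0.27, adjusted p = 0.000769), ASPM (-0.21, adjusted p = 0.00971), PTTG1 (-0.21) and NEK2, a kinase of centrosome separation (-0.19, adjusted p = 0.0095). The higher ones were KIF20A, CCNB1, CDC25B and DLGAP5 (0.13, adjusted p = 0.0257), the last of which was lost in 6 of 22 alternatives, each without 1 library. Without sh-SH2D1A library 2 of 6T-CEM on day 5 the count became 24. In single comparisons, 11 members had negative log2 changes in all 4 and 7 had positive ones in all 4. Neither these counts nor the correlations that follow were made over all genes, so they are not read as particular to the members. Over the 50 genes the log2 changes of 2 comparisons correlated at Pearson's r between 0.49 and 0.75 across the 6 pairs of comparisons, which share no library. The highest was between Jurkat on day 10 and 6T-CEM on day 5, and the points share the genes' length and base composition.

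Differences between the knockdown changes were tested in the same fit. None of the 50 genes passed for the Jurkat minus 6T-CEM difference on day 10, where 0.812% of genes passed (2 members at an unadjusted p under 0.05, and 0 by DESeq2). None passed for the Jurkat difference between days, where 0.00454% of genes passed (2 members at an unadjusted p under 0.05, and 0 by DESeq2). The unadjusted and DESeq2 counts have no share of all genes beside them and are not read as a result about the members. In 6T-CEM, PRC1 alone passed for the difference between days, where 0.681% of genes passed: its knockdown change was 0.53 ± 0.09 higher on the log2 scale on day 10 than on day 5 (adjusted p = 0.0167, edgeR). That call was lost without either sh-NC library of day 10, without sh-SH2D1A library 1 of day 10, and when the 8 libraries of 6T-CEM were fitted alone.

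Among mitotic genes outside the 50, INCENP, the scaffold of the chromosomal passenger complex, was lower in every knockdown comparison. It had 210 and 223 CPM in Jurkat with sh-SH2D1A on day 8, against 258 and 249 CPM with sh-NC, and 268 and 270 CPM with sh-SH2D1A on day 10, against 373 and 352 CPM with sh-NC. In 6T-CEM INCENP had 151 and 122 CPM with sh-SH2D1A on day 5, against 234 and 215 CPM with sh-NC, and 210 and 220 CPM with sh-SH2D1A on day 10, against 264 and 256 CPM with sh-NC. The groups were apart in all 4 tables, and the log2 changes were -0.23 ± 0.05 (adjusted p = 0.0289), -0.43 ± 0.08 (0.0129), -0.71 ± 0.14 (0.0334) and -0.27 ± 0.04 (0.00206) in Jurkat (days 8 and 10) and 6T-CEM (days 5 and 10). AURKB and BIRC5, its partners among the 50, were called lower in none of the 4. Of the 17 other passenger and midzone genes tested, 0 were higher and 1, 1, 2 and 3 lower in those 4 tables. CIT, the citron kinase of the midbody, was lower in 6T-CEM on day 5 (log2 -0.54), and ARHGAP11A (-0.29) and CEP55 (-0.26), a midbody protein, on day 10.

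Counts in the other lists are read against all genes tested, of which 5.23%, 1.26%, 0.606% and 6.61% were higher and 7.13%, 2.52%, 1.51% and 7.42% lower in Jurkat (days 8 and 10) and 6T-CEM (days 5 and 10). Of 17 subunits and inhibitors of the anaphase promoting complex, none passed in Jurkat on either day or in 6T-CEM on day 5, and 2 were higher and 2 lower in 6T-CEM on day 10. Of 33 other kinetochore and centromere genes, 2 were lower in Jurkat on day 8, and none passed in Jurkat on day 10 or in 6T-CEM on day 5. In 6T-CEM on day 10, 1 was higher and 2 lower. The higher one was SKA2, whose log2 change there ranged over 0.30 to 0.34 with a library left out. Of 18 condensin and cohesin genes, 1, 1, 0 and 6 were lower in Jurkat (days 8 and 10) and 6T-CEM (days 5 and 10), among the last STAG1 (log2 -0.38), RAD21 (-0.19) and SMC2 (-0.20), and 2 were higher in the last. The 1 in Jurkat on day 8 was STAG2, which overlaps the targeted gene SH2D1A on the same strand. The part of this overlap in its change was not tested. Of 22 regulators of mitotic entry, 2, 0, 0 and 3 were higher and 1, 0, 1 and 1 lower in the same order. CCNF, a cyclin of an ubiquitin ligase, was higher in Jurkat on day 8 (0.26) and in 6T-CEM on day 10 (0.23), and WEE1, the kinase that holds CDK1 inactive, was lower in 6T-CEM on day 10 (-0.30, adjusted p = 0.00416). Of 6 CDK inhibitors tested, 3, 1, 0 and 1 were lower in that order, and CDKN1A, which encodes p21, was higher in 6T-CEM on day 10 (0.69, adjusted p = 0.0285). CDKN1B, which encodes p27, had 68.0 and 70.9 CPM in Jurkat with sh-SH2D1A on day 8, against 100.3 and 100.1 CPM with sh-NC (log2 -0.54 ± 0.05, adjusted p = 0.00156), and was also lower in 6T-CEM on day 10 (-0.44, adjusted p = 0.000963). CDKN2D, which encodes p19, was lower in Jurkat on both days (-0.59 ± 0.07, adjusted p = 0.00281, and -0.72 ± 0.10, adjusted p = 0.0036).

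Of 46 S phase genes, 2, 1, 1 and 2 were higher and 5, 4, 2 and 7 lower with sh-SH2D1A in the same order of tables. GINS1, a subunit of the GINS complex of the replicative helicase, was lower in all 4, with log2 changes of -0.37 ± 0.06 (adjusted p = 0.00878), -0.37 ± 0.08 (0.0294), -0.69 ± 0.12 (0.0261) and -0.38 ± 0.04 (0.000738, edgeR). The summed level of the list in 6T-CEM on day 5 was 6250 ± 30.6 CPM with sh-SH2D1A and 7238 ± 21.5 CPM with sh-NC (SD, n = 2 each), and 5 of the 46 changes were positive there, with a median of -0.19. In Jurkat on day 10 the sum was 8426 ± 75.9 CPM with sh-SH2D1A and 9098 ± 108 CPM with sh-NC. The S phase genes and the 50 mitotic genes thus both had mostly negative changes in 6T-CEM on day 5.

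More of the 50 genes passed between days than between hairpins, and the direction differed between the lines. Day contrasts came from the fit of all 16 libraries, while the hairpin counts of each line and day came from fits of single tables. In 6T-CEM more of all genes also passed between days (43.1% and 39.9%) than between hairpins (2.11% and 14%), so there this is not particular to the members. In Jurkat, 26 members were higher and 0 lower on day 10 than on day 8 with sh-SH2D1A, where 6.55% of genes passed, 3.34% higher and 3.2% lower. With sh-NC 25 were higher and 0 lower, where 3.4% of genes passed, 1.83% higher and 1.57% lower. Of genes with a mean of at least 10 CPM 5.9% and 3.37% were higher. The median log2 change was 0.30 with sh-SH2D1A and 0.34 with sh-NC, and 49 and 48 of the 50 changes were positive. In 47 members with sh-SH2D1A both day 10 libraries lay above both day 8 libraries, against 27.7% of all genes, and in 44 with sh-NC, against 24.9%. The sum over the members was 9363 ± 279 CPM on day 10 with sh-SH2D1A against 7337 ± 33.0 CPM on day 8, and 9406 ± 323 CPM on day 10 with sh-NC against 6959 ± 167 CPM on day 8.

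All 7 roles took part in the Jurkat rise. With sh-SH2D1A 5 of 9 genes of the cyclin-CDK1 switch were higher on day 10, 2 of 5 kinases, 3 of 8 checkpoint genes, 3 of 7 kinetochore genes, 5 of 11 spindle genes, 6 of 8 midzone genes and both genes of chromosome structure. AURKA had 76.9 and 71.2 CPM on day 10 with sh-SH2D1A, against 49.9 and 48.4 CPM on day 8 (log2 0.59 ± 0.08, adjusted p = 0.000718, edgeR), and 58.9 and 67.1 CPM on day 10 with sh-NC, against 48.1 and 50.5 CPM on day 8 (0.35 ± 0.08, adjusted p = 0.0295). BUB1B had 254 and 261 CPM on day 10 with sh-SH2D1A, against 173 and 171 CPM on day 8 (0.58 ± 0.07, adjusted p = 0.000442). No library of day 10 overlapped those of day 8 for these genes. MKI67 had 1496 and 1527 CPM on day 10 with sh-NC, against 916 and 747 CPM on day 8, the largest rise with sh-NC (0.86 ± 0.10, adjusted p = 0.000362). With sh-SH2D1A its log2 change was 0.51 ± 0.10 (adjusted p = 0.00619). Next with sh-NC came DLGAP5 (0.59), TOP2A (0.58), ASPM (0.57), CENPE, a kinetochore motor (0.56), and CENPF (0.51), and with sh-SH2D1A ECT2 (0.53), CENPE (0.50) and ASPM (0.50). PLK1 and CDC20 did not pass with either hairpin, and 19 members passed with both.

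The number of calls in Jurkat depended on the libraries, and fewer of all genes also passed with any of the 4 libraries left out. Leaving out any of the 4 libraries compared left 9 to 12 calls with sh-SH2D1A and 6 to 16 with sh-NC, the fewest without sh-NC library 2 of day 8 (6) and sh-NC library 2 of day 10 (10). With the offsets for GC content 36 members were higher and 0 lower with either hairpin, where 7.15% of genes were higher with sh-SH2D1A and 5.39% with sh-NC. The GC content of transcripts hardly related to the day change in Jurkat, with r of -0.17 and 0.01 over 10394 genes with a mean of at least 10 CPM for sh-SH2D1A and sh-NC. The members' median lay 0.28 and 0.34 above genes of the same GC class, and 48 of 50 lay above in each.

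**Figure D4:**
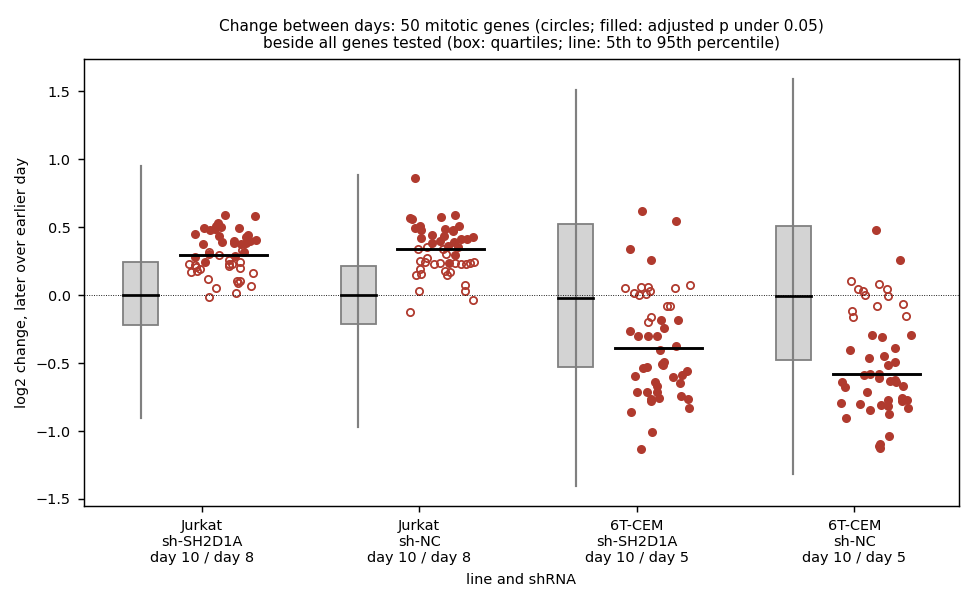
Log2 change between days of the 50 genes (circles) in Jurkat, day 10 over day 8, and in 6T-CEM, day 10 over day 5, with sh-SH2D1A left of sh-NC in each line. Grey boxes mark the middle of all 22032 genes tested and lines their 5th to 95th percentile. The circles lie mostly above 0 in Jurkat (49 and 48 of 50) and mostly below 0 in 6T-CEM, with medians of -0.39 and -0.58.

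In 6T-CEM the direction was the opposite. With sh-SH2D1A 33 members were lower and 4 higher on day 10 than on day 5, where 43.1% of genes passed, 21.7% lower and 21.4% higher. With sh-NC 36 were lower and 2 higher, where 39.9% of genes passed, 20.6% lower and 19.3% higher. Of genes with a mean of at least 10 CPM 33.9% and 33.1% were lower. The median log2 change of the members was -0.39 with sh-SH2D1A and -0.58 with sh-NC. Both day 10 libraries lay below both day 5 libraries in 35 members with sh-SH2D1A, against 35.4% of all genes, and in 39 with sh-NC, against 35.9%. Mitochondrial transcripts moved with day in this line: they took 6.13 to 6.55% of counts in the 4 libraries of day 10, against 7.44 to 9.19% in the 4 of day 5, highest in sh-SH2D1A library 2 of day 5, and their part in the result was not tested. ANLN had 104 and 110 CPM on day 10 with sh-SH2D1A, against 203 and 264 CPM on day 5 (log2 -1.13 ± 0.10, adjusted p = 1.52e-06, edgeR), and 122 and 125 CPM on day 10 with sh-NC, against 253 and 284 CPM on day 5 (-1.12 ± 0.10, adjusted p = 1.29e-06). KIF23, the kinesin subunit of centralspindlin, had 67.7 and 65.6 CPM on day 10 with sh-SH2D1A, against 120 and 148 CPM on day 5 (-1.01 ± 0.09, adjusted p = 2.36e-06), and 65.1 and 67.3 CPM on day 10 with sh-NC, against 134 and 149 CPM on day 5 (-1.10 ± 0.09). Both genes were lower on day 10 in every library than on day 5 in any. ECT2 followed with -0.83 with sh-SH2D1A and -1.11 with sh-NC (adjusted p = 3.22e-07), and ASPM had -1.03, TTK, the checkpoint kinase MPS1, -0.90 and KIF14 -0.87 with sh-NC. With sh-SH2D1A HMMR, a spindle assembly factor, had -0.86, CKAP2 -0.78 and CDK1 -0.77 (adjusted p = 0.000154).

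A few members were higher on day 10 in 6T-CEM. BIRC5 had 183 and 167 CPM on day 10 with sh-SH2D1A, against 118 and 110 CPM on day 5 (log2 0.62 ± 0.07, adjusted p = 1.27e-05, edgeR), and 185 and 184 CPM on day 10 with sh-NC, against 137 and 128 CPM on day 5 (0.48 ± 0.07, adjusted p = 0.000108). CDC20 was higher with sh-SH2D1A (0.54) and sh-NC (0.26, adjusted p = 0.0136), and its sign turned in both with GC offsets (-0.015 and -0.14). GTSE1, a G2 and S phase protein of microtubules, and FOXM1 were higher with sh-SH2D1A (0.34 and 0.26), and their signs also turned with GC offsets (-0.0040 and -0.17). PLK1 did not pass with either hairpin (0.03 and -0.07). By role, the genes lower on day 10 with sh-SH2D1A and with sh-NC were 6 and 5 of 9 of the cyclin-CDK1 switch, 1 and 3 of 5 kinases, 6 and 6 of 8 checkpoint genes, 5 and 5 of 7 kinetochore genes, 8 and 8 of 11 spindle genes, 6 and 7 of 8 midzone genes, and 1 and 2 of 2 genes of chromosome structure.

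GC content moved with the 6T-CEM day change across the transcriptome. Over 10394 genes with a mean of at least 10 CPM, r between the GC content of the longest transcript and the log2 change was 0.67 with sh-SH2D1A and 0.55 with sh-NC, and the lowest and highest of 10 GC classes had medians of -0.64 and 0.69 with sh-SH2D1A and of -0.59 and 0.44 with sh-NC. The 50 genes had a median GC content of 42.4%, between 34.2% for KIF20B and 59.3%, against 47.8% for all those genes, and within them r was 0.80 and 0.75, given as a description. Set against genes of the same GC class, the members' median was -0.08 with sh-SH2D1A, with 34 of 50 below, and -0.23 with sh-NC, with 44 of 50 below. With GC offsets 17 members were lower and 2 higher with sh-SH2D1A, where 17.5% of genes were lower, and 35 lower and 2 higher with sh-NC, where 18.1% were. The part of GC content in the remaining change was not tested.

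**Figure D5:**
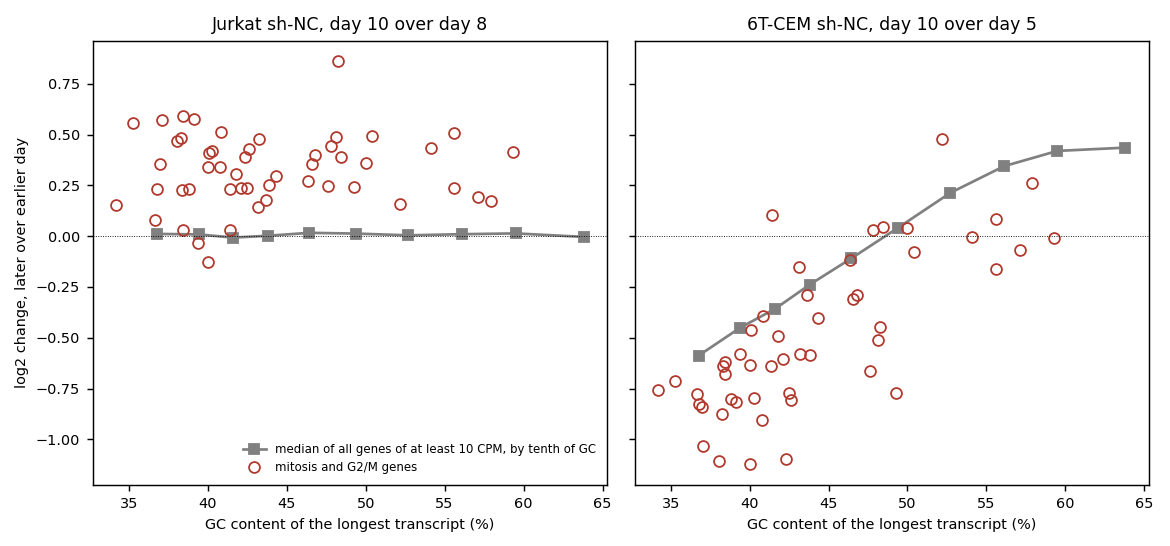
GC content in percent of the longest transcript (x axis) against the log2 change between days (y axis) of the 50 genes, in Jurkat with sh-NC (left) and 6T-CEM with sh-NC (right). Grey squares are medians of 10 GC classes of all genes with a mean of at least 10 CPM. In 6T-CEM the squares climb with GC content, between medians of -0.59 and 0.44, and 44 of 50 genes lie below their class, while in Jurkat the squares stay near 0 and 48 of 50 genes lie above.

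Day changes with the 2 hairpins are set side by side here. Over the 50 genes the changes with sh-SH2D1A and with sh-NC correlated at r = 0.94 in 6T-CEM and 0.74 in Jurkat. The 2 arms share no library, but both come from the same table of a day. In 6T-CEM 32 members were lower with both hairpins, and in Jurkat 19 were higher with both. The sets share 12 genes: ASPM, BUB1B, CCNB2, CENPE, DLGAP5, ECT2, KIF14, KIF23, NDC80, NUSAP1, TOP2A and TPX2. That is 12 of the 32, against 19 of all 50, and 12 of the 19, against 32 of all 50. These shares are close, and the counts were not made over all genes, so the 12 are given as a description.

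The other lists were read in the same contrasts. In Jurkat on day 10 against day 8, other passenger and midzone genes were higher in 5 of 17 with sh-SH2D1A and 6 of 17 with sh-NC, with none lower, among them CDCA8, the borealin subunit (log2 0.38 and 0.38), CIT (0.47 and 0.53), and with sh-NC INCENP (0.52). Other kinetochore genes were higher in 3 and 2 of 33, led by HJURP, the chaperone of CENPA (0.46 and 0.46), and KNL1 (0.47 and 0.48). CDKN1B was higher as well, by 0.72 ± 0.07 with sh-SH2D1A (adjusted p = 8.12e-05) and 0.45 ± 0.07 with sh-NC (adjusted p = 0.00316). S phase genes went the other way there: 1 of 46 was higher and 17 lower with sh-SH2D1A and 0 higher and 6 lower with sh-NC, such as UNG (-0.53 and -0.50) and MCM4, a subunit of the replicative helicase (-0.40 and -0.27). In 6T-CEM on day 10 against day 5, other kinetochore genes were higher in 8 and lower in 16 of 33 with sh-SH2D1A and higher in 6 and lower in 18 with sh-NC, with KNTC1 at -1.03 and -1.20. RAD21, a cohesin subunit, was at -0.82 and -0.78. S phase genes were mixed in 6T-CEM, with 19 higher and 10 lower with sh-SH2D1A and 12 higher and 17 lower with sh-NC.

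Between the lines on day 10 with sh-NC, 13 members were higher and 11 lower in Jurkat than in 6T-CEM, where 36.6% of genes passed, 18.4% higher and 18.2% lower. Of genes with a mean of at least 10 CPM 26.6% were higher and 24.1% lower. The median log2 difference was 0.02. PLK1 had 87.1 and 80.8 CPM in Jurkat, against 163 and 153 CPM in 6T-CEM (log2 -0.91 ± 0.08, adjusted p = 5.58e-07, edgeR). CDC20 had 112 and 97.9 CPM in Jurkat, against 186 and 185 CPM in 6T-CEM (-0.82 ± 0.08). KIF23 had 121 and 129 CPM in Jurkat, against 65.1 and 67.3 CPM in 6T-CEM (0.92 ± 0.09, adjusted p = 3.38e-06). No library of the lines overlapped for these 3 genes. BUB1B (0.87), PRC1 (0.79), NUSAP1, a microtubule bundling protein (0.74), CDC25C (0.65) and TOP2A (0.61) were also higher in Jurkat, and HMMR (-0.56), AURKA (-0.52), CCNB1 (-0.50) and CENPF (-0.48) lower. The lines were in separate tables, so line and table cannot be told apart. Of 46 S phase genes, 31 were higher and 1 lower in Jurkat in the same contrast.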

How the data were processed

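The authors deposited whole-number counts per Ensembl gene in 4 tables, 1 for each line and day, with no normalisation. Per the labels' protocols, total RNA was taken with TRIzol and sequenced as TruSeq libraries. HISAT2 2.2.0, StringTie and hg38 are named in the submitters' processing notes. The counting step, annotation release and strand setting were not given in the sources used here. Each table had its own fit with edgeR 4.0.16 in R 4.3.3. Genes were kept by filterByExpr (minimum count 10), scaled by TMM and tested two-sided with the quasi-likelihood F-test of glmQLFit. P-values were Benjamini-Hochberg adjusted over every gene tested, with calls at an adjusted p under 0.05. Genes without a symbol stayed in the fit and held 1.86 to 2.48% of counts. SE is the size of the log2 change divided by the root of F. Contrasts across tables came from 8 group means fitted over all 16 libraries. Lengths, positions and GC content came from GENCODE 29, promoters from RefSeq (GRCh38.p14). The procedure was tested on simulated data. Replicate numbers were not used as pairs.

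The members and lists were chosen with earlier results of these data known. Named genes were SH2D1A, 12 anchors (CCNB1, CDK1, PLK1, AURKA, BUB1, CDC20, CENPA, KIF11, TOP2A, MKI67, BIRC5 and FOXM1), every member called in a single knockdown comparison, up to 6 rises and 6 falls per contrast, up to 3 called genes of each other list, and the paralogs CKS1B and CKS2. Members named beyond these were chosen after their values had been seen. Alternatives were DESeq2 1.42.0 size factors and its Wald test, other filters on low counts, the replicate block, the libraries entering the fit, and leaving out single libraries, where the arm's remaining library was taken to vary as other groups do.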

Additional observations from a re-analysis of the deposited data

Results flagged for a closer look

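PRC1 stood out for a difference between days in the effect of the hairpin. Its log2 knockdown change in 6T-CEM was 0.53 higher at day 10 than at day 5, by the test of the difference itself in edgeR's fit of 16 libraries (adjusted p = 0.0167). It had 126 and 120 CPM with sh-SH2D1A at day 10, against 128 and 133 CPM with sh-NC. The day 5 values were 119 and 125 CPM with sh-SH2D1A, against 187 and 185 CPM with sh-NC. The call was lost when the 6T-CEM libraries were fitted alone. For this difference 46 of 50 members lay above genes of the same GC class, by a median of 0.14.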

How the results depend on the processing

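Counts of members called that moved by more than 1.5 times were these. With no filter on low counts there were 2 in Jurkat on day 8, 0 in Jurkat on day 10 and 2 in 6T-CEM on day 10. With the DESeq2 Wald test there were 2 in Jurkat on day 10, 6 in 6T-CEM on day 5 and 3 for the 6T-CEM difference between days. With all 16 libraries in the fit there were 3, 3, 14 and 2 in Jurkat (days 8 and 10) and 6T-CEM (days 5 and 10). With GC offsets, chosen after seeing the data, there were 3 in Jurkat on day 10, 19 in 6T-CEM on day 5, 8 in 6T-CEM on day 10, 4 for the 6T-CEM difference between days and 19 for 6T-CEM with sh-SH2D1A, day 10 over day 5. With 1 line fitted alone there were 0 for the 6T-CEM difference between days. With GC offsets 6.37%, 13.4%, 11.7%, 3.1% and 33.1% of all genes passed in the contrasts listed for them, in that order. Without the offsets 3.78%, 2.11%, 14%, 0.681% and 43.1% did. The number of all genes called also moved under some of the other settings, so these counts are not read as a result about the members. The causes were not tested. Leaving out a library also changed the number of all genes called. With a library left out, the counts ranged over 0 to 8 in Jurkat on day 8, 0 to 1 in Jurkat on day 10, 0 to 18 in 6T-CEM on day 5, 4 to 11 in 6T-CEM on day 10, 12 to 24 for the mean, 0 to 3 for the 6T-CEM difference between days, 28 to 37 and 33 to 35 between days in 6T-CEM with sh-SH2D1A and sh-NC, 9 to 12 and 6 to 16 in Jurkat, and 19 to 21 between lines.

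Replicate numbers are not stated to pair libraries. Over genes, libraries of equal number deviated from group means with correlations of 0.0109, 0.0968, 0.108 and 0.00702 in Jurkat (days 8 and 10) and 6T-CEM (days 5 and 10). With the replicate block the counts in those tables were 4, 4, 11 and 13, and 19 for the mean. The 11 in 6T-CEM on day 5 were all lower, where 6.9% of genes were lower. Shares of all genes for the other counts are not given here, so those counts are not read as a result about the members.

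Signs of uncalled members turned in places. In Jurkat on day 8, TOP2A was 0.00062 with DESeq2 size factors, 0.00065 with the Wald test, 0.00097 with no filter, 0.039 with GC offsets and 0.0031 with all 16 libraries, and BIRC5 was -0.0051 with GC offsets. GC offsets gave 0.011 for CENPA and 0.014 for FOXM1 in Jurkat on day 10, 0.0064 for FOXM1 in 6T-CEM on day 5 and -0.046 for PLK1 in 6T-CEM on day 10. They also turned calls between days in 6T-CEM, to -0.015 for CDC20, -0.0040 for GTSE1, -0.17 for FOXM1 and -0.17 for CDKN2C with sh-SH2D1A, and to -0.14 for CDC20 and 0.21 for SH2D1A with sh-NC. With a library left out, log2 changes in Jurkat on day 8 ranged over -0.038 to 0.066 for CDK1, -0.044 to 0.023 for AURKA, -0.017 to 0.054 for KIF11, -0.066 to 0.061 for TOP2A and -0.034 to 0.063 for BIRC5. On day 10 they ranged over -0.17 to 0.027 for CDC20, -0.090 to 0.081 for CENPA, -0.22 to 3.8e-06 for KIF11, -0.098 to 0.20 for MKI67, -0.023 to 0.087 for BIRC5 and -0.039 to 0.0093 for FOXM1. In 6T-CEM they ranged over -0.40 to 0.081 for CDK1 and -0.060 to 0.0020 for FOXM1 on day 5, and over -0.029 to 0.059 for PLK1, -0.029 to 0.0026 for CDC20 and -0.035 to 0.069 for MKI67 on day 10.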
